A study of Mus musculus with 12 samples.

Results

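Chemokines expressed by 3T3-L1 cells were followed through the onset of fat cell formation, with and without depletion of PRMT1, an arginine methyltransferase that places asymmetric dimethyl marks on histones and other proteins. The set held 10 of the 39423 genes in the count table, taken by gene name: Cxcl1, Cxcl5, Cxcl10, Cxcl12, Cxcl16, Ccl2, Ccl5, Ccl7, Ccl9 and Cx3cl1. 3T3-L1 is a mouse preadipocyte line, and all cells had received an adipogenic cocktail, MDI in the labels, that is made of insulin, dexamethasone and 3-isobutyl-1-methylxanthine,, for 24 hours (day 1) or 72 hours (day 3). The cells carried either a negative control siRNA (siCtrl, NC in the labels) or an siRNA against Prmt1 (siPRMT1). Each of the 4 groups held 3 libraries, 12 in all. The knockdown was a transient transfection of 1 cell line, no untreated or uninduced cells were part of the comparison, and the labels do not say whether libraries of a group came from separate cultures. The p-values therefore measure the spread between these libraries, which may be technical.

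Chemokines are small secreted proteins that direct the movement of cells through receptors of the G protein-coupled class. Cxcl1 and Cxcl5 act on Cxcr2 and draw neutrophils. Cxcl10 acts on Cxcr3 and is known as an interferon-induced attractant of T cells. Ccl2 and Ccl7 act on Ccr2 and draw monocytes, Ccl5 draws T cells and monocytes, and Ccl9 is a mouse ligand of Ccr1. Cxcl12 is made by stromal cells without a stimulus, signals through Cxcr4 and is scavenged by Ackr3. Cxcl16 and Cx3cl1 are tethered to the membrane by a stalk from which proteases of the Adam family release them, and act on Cxcr6 and Cx3cr1. In fat tissue, stromal cells and adipocytes are a known source of Ccl2 and other chemokines that attract macrophages.

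Total counts per library ran from 15116462 to 42357137, and replicate libraries differed by more than counting error. Prmt1 itself checked the labels: at day 1 it stood at 82.9, 83.4 and 91.3 FPKM (fragments scaled to gene length and to the library total) in siCtrl against 43.8, 38.6 and 41.4 in siPRMT1, and at day 3 at 110.6, 120.4 and 140.2 against 62.0, 71.7 and 68.5. The day 1 log2 fold change was -1.11 ± 0.0758 (SE, n = 3 against 3, adjusted p = 9.85e-04 by edgeR's quasi-likelihood test), and the day 3 value was -0.88 ± 0.0883 (adjusted p = 1.22e-05). The siCtrl day 1 replicate 3 library stood apart from its group, with a chi-square per gene of 50.6 and 30.8 against the other 2 libraries, while the other replicate pairs of the series lay between 4.14 and 15.8. Adipocyte markers summed to 147 to 153 FPKM in siCtrl and 111 to 126 FPKM in siPRMT1 at day 1, and to 2690 to 2910 FPKM and 2100 to 2290 FPKM at day 3. All 7 of these markers were called higher at day 3 than at day 1 in both siCtrl and siPRMT1. The shares over all genes tested were 22.7% and 19%. Leukocyte markers summed to 16.2 FPKM or less in every library. Of the 12 listed, 3 had no count in any library, among them Ptprc, which is carried by leukocytes in general. S100a8 reached 12.9 FPKM and Cd68 2.35 FPKM. Of the 5 tested at day 3 against day 1 in siCtrl, S100a8, Cd68 and Csf1r were called higher and Itgam and Lyz2 lower. Over all genes tested there, 22.7% were called higher and 20.4% lower.

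The promoters of Cxcl1, Cxcl10 and Ccl9 are shown because Cxcl10 had the largest knockdown difference of the set at day 1, those of Cxcl1 and Ccl9 differed between the days, and all 3 hold a match to the NF-kB motif searched here. They are RefSeq sequences of the GRCm38.p6 assembly, from 250 bases before to 50 bases after the gene start, written 5′ to 3′ on the strand of the gene. Such a sequence was found for 5 of the 10 members. That of Cxcl12, whose knockdown difference also differed between the days, holds no match to the NF-kB motif and is not shown. Capitals mark matches to the NF-kB decamer and, in Cxcl10 nearest the left end, to the interferon-response-like motif GAAANNGAA.
Cxcl10, chr5:92348840-92349139, minus strand: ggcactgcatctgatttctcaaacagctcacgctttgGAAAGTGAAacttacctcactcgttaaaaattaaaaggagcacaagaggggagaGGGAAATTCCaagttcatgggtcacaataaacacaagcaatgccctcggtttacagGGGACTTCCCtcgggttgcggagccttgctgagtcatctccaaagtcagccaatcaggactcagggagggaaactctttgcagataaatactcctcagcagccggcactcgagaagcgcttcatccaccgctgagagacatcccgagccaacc
Cxcl1, chr5:90890995-90891294, plus strand: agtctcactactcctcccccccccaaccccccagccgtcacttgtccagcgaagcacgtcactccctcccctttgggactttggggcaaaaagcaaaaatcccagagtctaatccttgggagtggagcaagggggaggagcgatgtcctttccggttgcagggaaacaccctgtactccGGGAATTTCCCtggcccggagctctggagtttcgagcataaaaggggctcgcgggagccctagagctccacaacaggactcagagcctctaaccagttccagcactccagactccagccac
Ccl9, chr11:83578587-83578886, minus strand: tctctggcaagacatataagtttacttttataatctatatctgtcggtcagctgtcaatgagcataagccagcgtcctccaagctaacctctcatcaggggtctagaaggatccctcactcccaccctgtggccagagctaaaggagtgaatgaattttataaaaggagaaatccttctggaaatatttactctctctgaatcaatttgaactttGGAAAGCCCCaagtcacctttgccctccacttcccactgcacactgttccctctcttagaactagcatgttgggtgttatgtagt
Motifs were searched on both strands. The NF-kB decamer was matched in 4.51% of 32851 promoters, and among the members in Cxcl1 (2 overlapping matches, 1 on each strand), Cxcl10 (2 separate matches) and Ccl9. GAAANNGAA was matched in 8.56% of promoters and among the members in Cxcl10. The AP-1 motif TGANTCA, which reads the same on both strands, was matched in 7.81% of promoters and in Cxcl10 and Ccl9. The C/EBP motif TTGCNNAA was matched in 10.8% of promoters and in none of the 5 found here, Cxcl12 and Cx3cl1 being the others. A match describes the letters of this window only.

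**Figure D1:**
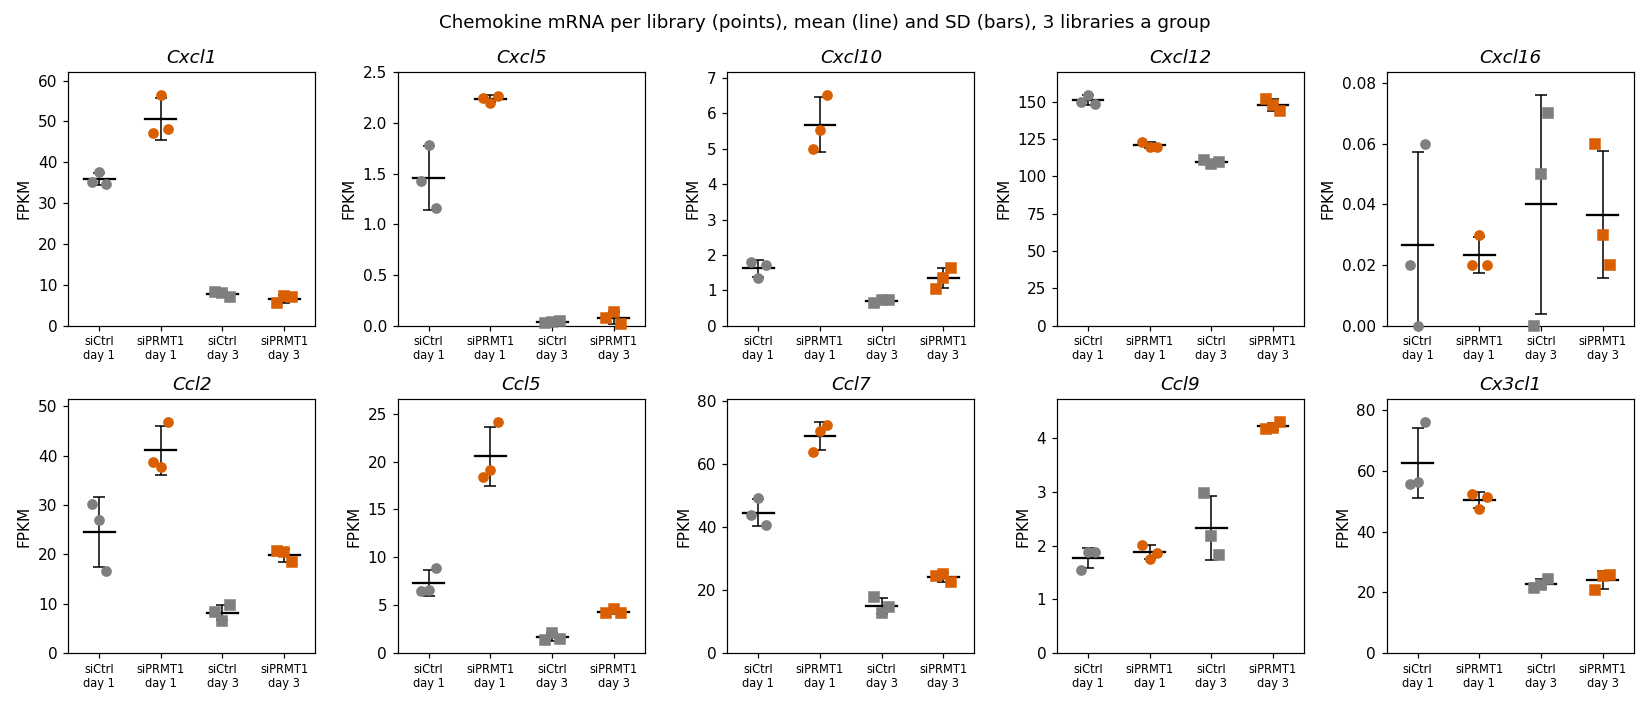
FPKM (y axis, linear, each panel with its own scale) of the 10 chemokines in the 4 groups on the x axis (circles day 1, squares day 3, grey siCtrl, orange siPRMT1), with each library as a point, the mean as a line and the SD as bars. Cxcl12 lies above 100 FPKM in every library, Cxcl16 stays under 0.1 FPKM, and the siPRMT1 libraries lie above the siCtrl libraries of the same day for Cxcl10, Ccl2, Ccl5 and Ccl7.

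Cxcl12 was the most abundant member in every library. Its mean was 151 ± 3.17 FPKM (SD, n = 3) in siCtrl at day 1, and it made up 44.9 to 46.0% of the summed FPKM of the 10 members there, 32.1 to 34.9% in siPRMT1 at day 1, 64.5 to 66.3% in siCtrl at day 3 and 62.4 to 65.2% in siPRMT1 at day 3. In siCtrl at day 1 the order below it was Cx3cl1, Ccl7, Cxcl1, Ccl2 and Ccl5, each separated from the next by a gap between their libraries. Ccl9, Cxcl10 and Cxcl5 followed at means of 1.77, 1.62 and 1.46 FPKM with ranges that overlapped from one to the next. In siPRMT1 at day 1, Ccl7 stood above Cx3cl1, and the ranges of Cxcl1 and Cx3cl1 overlapped. At day 3 Cx3cl1 was again second in siCtrl, while in siPRMT1 its range overlapped that of Ccl7, and Ccl5 and Ccl9 overlapped in both groups, as did Ccl2 and Cxcl1 in siCtrl. The summed FPKM of the 10 members was 326 to 336 in siCtrl and 353 to 373 in siPRMT1 at day 1, and 163 to 172 and 227 to 237 at day 3, so the siPRMT1 libraries lay above the siCtrl libraries of their day.

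Knockdown of PRMT1 was compared within each day, which asks what depletion did to these mRNAs early and later in differentiation. Calls needed both an adjusted p below 0.05 and a log2 fold change beyond 0.5 in size. The members were chosen with earlier results of these data known. Their shares beside all genes, here and in the later comparisons, therefore describe the set and do not test it. At day 1, Ccl5, Ccl7 and Cxcl10 were higher in siPRMT1, 3 of the 9 members tested, beside 1.95% of the 13689 genes tested. None was called lower by edgeR or by DESeq2, beside 1.61% of genes, although 2 members had an unadjusted p under 0.05 in that direction. At day 3, Ccl2, Ccl5, Ccl7, Ccl9 and Cxcl10 were higher, 5 of the 8 tested, beside 2.84% of the 14039 genes tested, and none was called lower by edgeR or DESeq2 (0 at an unadjusted p under 0.05), beside 3.8% of genes. The median log2 fold change of the tested members was 0.57 at day 1 and 0.77 at day 3, and over all genes tested it was 0.01 at both days. RNA was taken from whole cultures, so a change in the number of cells that express a gene and in the RNA per cell cannot be told apart.

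**Figure D2:**
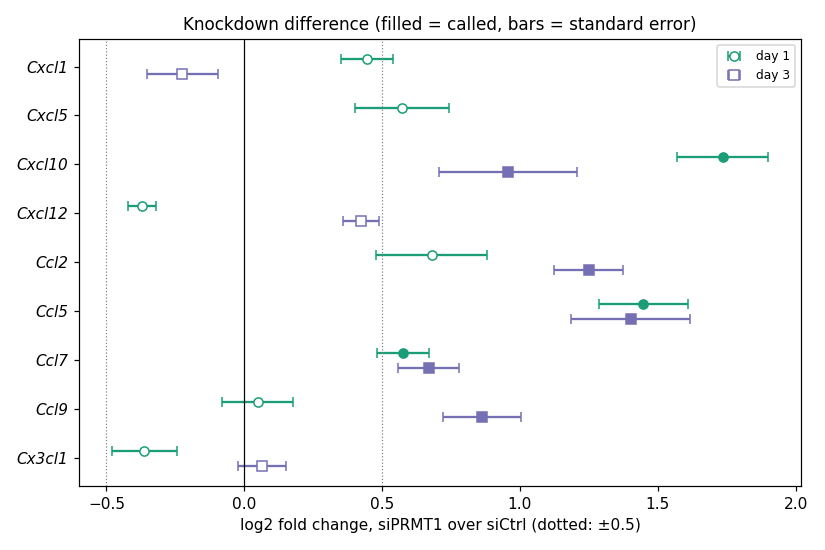
log2 fold change of siPRMT1 over siCtrl (x axis) for each tested member (y axis) at day 1 (green circles) and day 3 (violet squares), with the standard error as bars and filled symbols for called members. Ccl5, Ccl7 and Cxcl10 are filled and to the right of 0 at both days, Ccl2 and Ccl9 at day 3, and Cxcl12 moves from -0.37 at day 1 to 0.42 at day 3.

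Cxcl10 showed the largest difference of the tested members at day 1. It stood at 1.80, 1.36 and 1.71 FPKM in siCtrl and 4.98, 5.54 and 6.52 FPKM in siPRMT1, so the lowest depleted library lay well above the highest control. The log2 fold change was 1.74 ± 0.165 (SE, n = 3 against 3, adjusted p = 0.00302), or 3.33-fold. At day 3 the levels were 0.63, 0.72 and 0.72 FPKM against 1.05, 1.36 and 1.62 FPKM, again without overlap. The log2 fold change was 0.96 ± 0.250 (adjusted p = 0.0164). This call rested on 12 to 44 counts per library and was lost with DESeq2 (adjusted p = 0.0860), without siCtrl replicate 1 (0.0561) and without siPRMT1 replicate 3 (0.0699). Cxcl10 (chromosome 5, 92346638 to 92348889, minus strand) lies beside the other Cxcr3 ligands Cxcl9 and Cxcl11, 18.6 and 10.7 kb away, which had at most 6 and 5 counts in any library.

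Ccl5 was the member with the closest differences on the 2 days. At day 1 it stood at 6.52, 6.58 and 8.93 FPKM in siCtrl and 18.4, 19.2 and 24.1 FPKM in siPRMT1, a log2 fold change of 1.45 ± 0.162 (SE, n = 3 against 3, edgeR adjusted p = 0.00354). At day 3 it stood at 1.40, 2.11 and 1.5 FPKM against 4.18, 4.61 and 4.19 FPKM, a log2 fold change of 1.40 ± 0.215 (adjusted p = 4.00e-04). The groups did not overlap on either day, and the call held in each fit that left out 1 library. Ccl5 (chromosome 11, 83525778 to 83530518, minus strand) lies 42.4 kb from Ccl9 on the same strand. The ligand genes Ccl3 and Ccl4, 117 and 118 kb from Ccl5, had at most 1 and 0 counts in any library. Ccl6, 57.4 kb from Ccl5 and 9.25 kb from Ccl9, reached 80 counts and 2.43 FPKM, and at day 3 its log2 fold change was -0.25 ± 0.196 (edgeR adjusted p = 0.409).

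Ccl2 and Ccl7, which share a receptor, lie 8.26 kb apart on the plus strand of chromosome 11 (82035577 to 82037452 and 82045712 to 82047525). At day 1 Ccl7 stood at 43.7, 49.4 and 40.8 FPKM in siCtrl and 63.9, 70.5 and 72.3 FPKM in siPRMT1, with a log2 fold change of 0.58 ± 0.0948 (SE, n = 3 against 3, edgeR adjusted p = 0.0127). The groups did not overlap, but the call was lost in each of the 3 fits that left out a siPRMT1 library (adjusted p = 0.0568 without replicate 1, 0.0710 without replicate 2 and 0.0941 without replicate 3). Ccl2 stood at 30.1, 26.9 and 16.6 FPKM in siCtrl and 38.8, 37.8 and 46.8 FPKM in siPRMT1, with a log2 fold change of 0.68 ± 0.201 (adjusted p = 0.0806). Its lowest control value belonged to the siCtrl replicate 3 library that stood apart. Without that library the difference was 0.46 ± 0.0964 (adjusted p = 0.00369), under the threshold on the fold change, while DESeq2 called it on all 6 libraries (0.68, adjusted p = 0.00961).

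At day 3 both genes were called. Ccl2 stood at 8.34, 6.57 and 9.66 FPKM in siCtrl and 20.8, 20.4 and 18.4 FPKM in siPRMT1. Its log2 fold change was 1.25 ± 0.125 (SE, n = 3 against 3, edgeR adjusted p = 1.22e-05), or 2.38-fold. Ccl7 stood at 17.7, 12.7 and 14.5 FPKM against 24.3, 25.2 and 22.4 FPKM, with a log2 fold change of 0.67 ± 0.111 (adjusted p = 7.68e-04). In both genes every siPRMT1 library lay above every siCtrl library, and both calls held in each fit that left out 1 library. Other ligands of this stretch of chromosome 11 were hardly counted: Ccl11, an eosinophil attractant, reached 29 counts, Ccl8 15, Ccl1 1 and Ccl12 0.

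Ccl9 (chromosome 11, 83572917 to 83578636, minus strand) differed at day 3 and not detectably at day 1. At day 1 its libraries overlapped, at 1.55, 1.88 and 1.88 FPKM in siCtrl and 2.02, 1.76 and 1.87 FPKM in siPRMT1, and the log2 fold change was 0.05 ± 0.129 (SE, n = 3 against 3, edgeR adjusted p = 0.864). At day 3 they stood at 2.98, 2.18 and 1.82 FPKM against 4.18, 4.20 and 4.30 FPKM, without overlap and with a tight depleted group. The log2 fold change was 0.86 ± 0.141 (adjusted p = 6.73e-04).

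Cxcl12 (chromosome 6, 117168535 to 117181368, plus strand) had small differences of opposite sign on the 2 days. At day 1 it stood at 150.0, 154.4 and 148.2 FPKM in siCtrl and 123.1, 119.4 and 119.8 FPKM in siPRMT1. The log2 fold change was -0.37 ± 0.0495 (SE, n = 3 against 3, edgeR adjusted p = 0.00624), past the threshold on p only. At day 3 it stood at 111.0, 108.0 and 109.8 FPKM against 151.7, 147.8 and 143.4 FPKM, with a log2 fold change of 0.42 ± 0.0642 (adjusted p = 3.62e-04), which again was short of the fold threshold. The groups were separate on both days, with the control libraries above at day 1 and below at day 3. With 11692 to 45494 counts per library, this was the most deeply counted member.

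Cxcl1 and Cxcl5, the Cxcr2 ligands, lie 130 kb apart on the plus strand of chromosome 5 (90891245 to 90893121 and 90759298 to 90761625). At day 1 Cxcl1 stood at 35.3, 37.6 and 34.8 FPKM in siCtrl and 47.2, 56.5 and 48.1 FPKM in siPRMT1, with a log2 fold change of 0.44 ± 0.0934 (SE, n = 3 against 3, edgeR adjusted p = 0.0272), short of the fold threshold. At day 3 its libraries overlapped, at 8.34, 7.97 and 7.10 FPKM against 5.53, 7.38 and 7.05 FPKM, with a log2 fold change of -0.22 ± 0.130 (adjusted p = 0.261). Their neighbours Cxcl2, Cxcl3, Cxcl15, Pf4 and Ppbp had between 0 and 5 counts in any library, so Cxcl1 was the Cxcr2 ligand with the most counts there.

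Cxcl5 was measured with less certainty, because the table lists a second entry under this symbol, Cxcl5_1, on another scaffold. That entry held 63.9 to 79.0% of the summed counts of the pair at day 1, and how reads that match both were assigned is not given in the sources used here. At day 1 Cxcl5 stood at 1.43, 1.78 and 1.16 FPKM in siCtrl and 2.25, 2.20 and 2.27 FPKM in siPRMT1. The log2 fold change was 0.57 ± 0.172 (SE, n = 3 against 3, edgeR adjusted p = 0.0827), and for Cxcl5_1 it was 0.25 ± 0.282 (adjusted p = 0.648). With the pair summed, an alternative chosen after seeing the data, it was 0.33 ± 0.233 (adjusted p = 0.435). At day 3 Cxcl5 had 1 to 6 counts per library and was not tested. Cxcl5_1 was tested there on 1 to 12 counts per library, with a log2 fold change of 0.92 ± 0.435 (adjusted p = 0.164).

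The membrane-tethered members were not called at either day. Cx3cl1 (chromosome 8, 94772180 to 94782427, plus strand) stood at 55.8, 56.3 and 76.0 FPKM in siCtrl and 52.5, 47.3 and 51.4 FPKM in siPRMT1 at day 1, and the high control value belonged to the replicate 3 library that stood apart. The log2 fold change was -0.36 ± 0.117 (SE, n = 3 against 3, edgeR adjusted p = 0.101), and without that library it was -0.21 ± 0.0572 (adjusted p = 0.0153), short of the fold threshold. At day 3 its libraries overlapped, at 21.6, 22.6 and 24.5 FPKM against 20.7, 25.5 and 25.8 FPKM, with a log2 fold change of 0.06 ± 0.0875 (adjusted p = 0.654). Its neighbours Ccl17 and Ccl22 reached 80 and 3 counts. Cxcl16 (chromosome 11, 70454232 to 70459984, minus strand) had 0 to 4 counts per library and was not tested. The libraries of 0 counts, siCtrl replicate 2 at day 1 and siCtrl replicate 1 at day 3, stood at the limit of counting, since a floor of 3 counts corresponds to 0.0281 to 0.0788 FPKM for this gene over the 12 libraries, counting error only.

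Whether the knockdown difference itself differed between the days was tested over all 12 libraries as the interaction of siRNA and day, at an adjusted p under 0.05 with no threshold on the fold change. Cxcl12 and Ccl9 had a higher difference at day 3, 2 of 9 members tested, beside 7.69% of the 14612 genes tested. Cxcl1 had a lower one, beside 4.63% of genes. Without siCtrl day 1 replicate 3, the calls over all genes were 1760 higher and 1974 lower of 14978, from 1123 and 676 with it. The difference at day 3 minus that at day 1 was 0.81 ± 0.0699 (SE, log2, n = 3 per group, edgeR adjusted p = 6.52e-06) for Cxcl12, 0.83 ± 0.213 (adjusted p = 0.0209) for Ccl9 and -0.65 ± 0.160 (adjusted p = 0.0164) for Cxcl1. The values for Cxcl12 and Cxcl1 held in each of the 12 fits that left out 1 library, while that for Ccl9 passed the threshold no longer without siCtrl day 1 replicate 2 (adjusted p = 0.0614), siPRMT1 day 1 replicate 3 (0.0542) or siCtrl day 3 replicate 2 (0.0541). For Ccl2, called at day 3 and not at day 1, the interaction was 0.59 ± 0.254 (adjusted p = 0.145), so its difference was not shown to change with the day. Without the siCtrl day 1 replicate 3 library it was 0.77 ± 0.167 (adjusted p = 0.00368). For Cxcl10 it was -0.76 ± 0.299 (adjusted p = 0.114), for Ccl7 0.11 ± 0.151 (0.683) and for Ccl5 -0.03 ± 0.334 (0.972).

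The course from day 1 to day 3 was the larger change for most members. In siCtrl, 8 of 9 members tested were lower at day 3, beside 20.4% of the 13829 genes tested, and 0 were higher, beside 22.7% of genes. In that direction edgeR gave 0 members at an unadjusted p under 0.05 and DESeq2 called 0. The median log2 fold change of the members was -1.64, against 0.00 over all genes tested. In siPRMT1, 7 of 9 were lower, beside 17.4% of the 14224 genes tested, and 1 was higher, Ccl9, beside 19% of genes. The median was -1.53, against 0.00 over all genes.

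**Figure D3:**
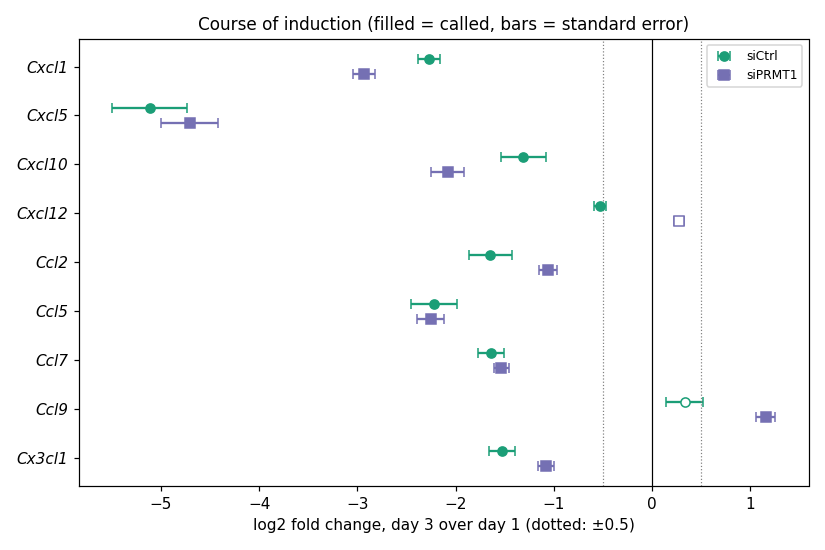
log2 fold change of day 3 over day 1 (x axis) for each tested member (y axis) in siCtrl (green circles) and siPRMT1 (violet squares), with the standard error as bars and filled symbols for called members. Cxcl5 lies farthest to the left, Ccl9 lies to the right of 0 in both siCtrl and siPRMT1, and Cxcl12 does so in siPRMT1 only.

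Cxcl5 fell most. Its counts in siCtrl were 100, 63 and 41 at day 1 and 1, 1 and 2 at day 3, and in siPRMT1 87, 98 and 91 against 3, 6 and 1. The log2 fold changes were -5.12 ± 0.379 (SE, n = 3 against 3, edgeR adjusted p = 2.10e-06) and -4.71 ± 0.289 (adjusted p = 6.92e-09), which rest on very few day 3 counts. Cxcl5_1 gave -4.73 and -4.06. Cxcl1 fell from a mean of 35.9 ± 1.51 to 7.80 ± 0.637 FPKM (SD, n = 3) in siCtrl and from 50.6 ± 5.14 to 6.65 ± 0.987 FPKM in siPRMT1, log2 fold changes of -2.28 and -2.93. These Cxcr2 ligands were thus lower at day 3 than at day 1 in both groups, and only Cxcl5 came near 0.

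Ccl5 fell from 7.34 ± 1.37 to 1.67 ± 0.384 FPKM in siCtrl (SD, n = 3) and from 20.6 ± 3.09 to 4.33 ± 0.245 FPKM in siPRMT1, with log2 fold changes of -2.22 ± 0.237 and -2.26 ± 0.136 (SE). Ccl7 fell by 1.64 on the log2 scale in siCtrl and fell by 1.53 in siPRMT1. Ccl2 fell from 24.6 ± 7.06 to 8.19 ± 1.55 FPKM in siCtrl and from 41.1 ± 4.94 to 19.9 ± 1.30 FPKM in siPRMT1, log2 fold changes of -1.65 ± 0.222 and -1.06 ± 0.0937. These 3 genes therefore kept a higher mean in siPRMT1 than in siCtrl at the end of a fall seen in both groups. Cxcl10 had log2 fold changes of -1.31 ± 0.229 in siCtrl (adjusted p = 7.16e-04 by edgeR) and -2.08 ± 0.167 in siPRMT1 (1.10e-07). Cx3cl1 had log2 fold changes of -1.53 and -1.08, from 62.7 ± 11.5 to 22.9 ± 1.48 FPKM in siCtrl and from 50.4 ± 2.73 to 24.0 ± 2.86 FPKM in siPRMT1.

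Cxcl12 and Ccl9 had positive log2 fold changes in siPRMT1, and Ccl9 also had one in siCtrl that was not called. Cxcl12 fell in siCtrl, from 151 ± 3.17 to 110 ± 1.52 FPKM (SD, n = 3), with a log2 fold change of -0.53 ± 0.0604 (SE, edgeR adjusted p = 4.01e-05). In siPRMT1 its mean was 121 ± 1.99 FPKM at day 1 and 148 ± 4.16 FPKM at day 3, a log2 fold change of 0.28 ± 0.0519 (adjusted p = 3.64e-04) that was under the threshold on the fold change. Ccl9 rose in siPRMT1 by a log2 value of 1.16 ± 0.0973 (adjusted p = 1.74e-07), and in siCtrl its value was 0.33 ± 0.190 (adjusted p = 0.159), with overlapping libraries. The interaction given above is the test of these differences between siCtrl and siPRMT1, since it compares the same 4 groups.

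The other chemokines and their receptors were sparse. Of 26 further ligands, 9 had no count in any library and 5 reached 1 FPKM in any library, with Ccl25 the highest at 8.07 FPKM. Of 23 receptors, 4 had no count and 3 reached 1 FPKM. Cxcr4 and Cxcr3, the signalling receptors of Cxcl12 and Cxcl10, had no count in any of the 12 libraries. Ackr3, the scavenger of Cxcl12, reached the highest level of any receptor, 15.9 FPKM in siPRMT1 at day 1, while in siCtrl at day 3 its mean of 0.83 FPKM was below the 1.05 FPKM of Ccr1.

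**Figure D4:**
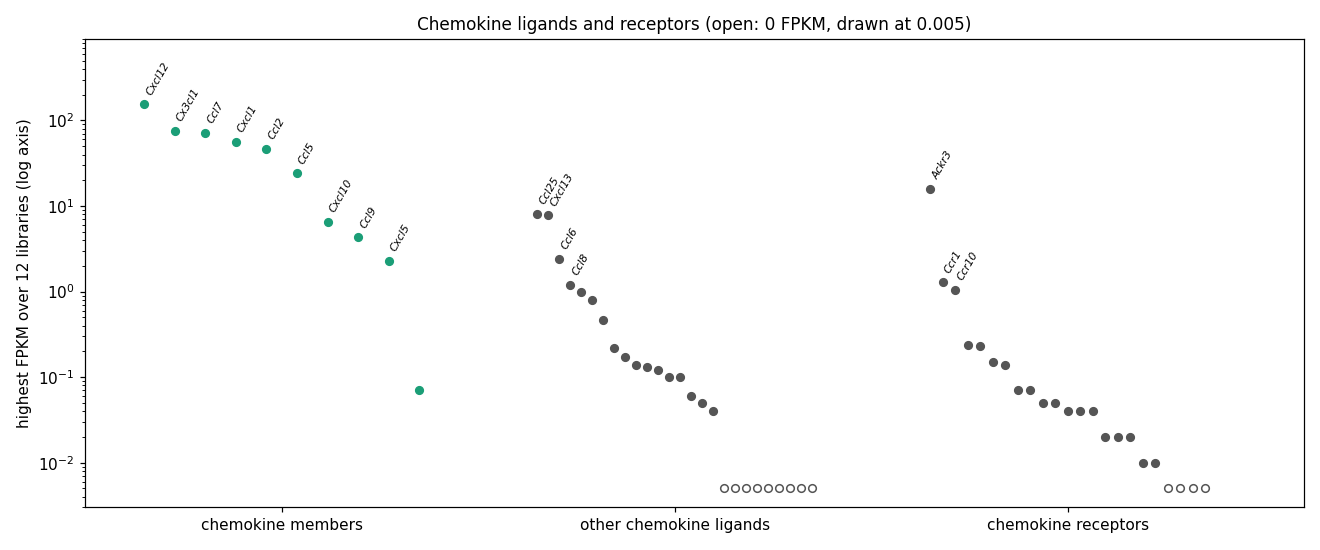
Highest FPKM over the 12 libraries (y axis, log scale) of each of the 10 chemokines, 26 other chemokine ligands and 23 chemokine receptors (x axis, sorted within each list), with names for genes above 1 FPKM and open symbols for genes at 0. Ackr3 at 15.9 FPKM is the highest receptor, and no other ligand lies above 8.07 FPKM.

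Ackr3 stood at 10.9, 10.3 and 10.9 FPKM in siCtrl and 14.9, 15.02 and 15.9 FPKM in siPRMT1 at day 1, a log2 fold change of 0.47 ± 0.0746 (SE, n = 3 against 3, edgeR adjusted p = 0.0120) that was short of the fold threshold. At day 3 it stood at 0.73, 0.88 and 0.88 FPKM against 1.42, 1.86 and 1.57 FPKM, and was called higher, with a log2 fold change of 0.96 ± 0.171 (adjusted p = 0.00131). The groups did not overlap on either day. For the knockdown, edgeR called 1.95% of all genes tested higher and 1.61% lower at day 1, and 2.84% and 3.8% at day 3. No receptor was called at day 1 by edgeR or DESeq2 among the 3 tested, of which 2 had an unadjusted p under 0.05. At day 3, 1 of 4 tested was higher and 1 lower, Ccr1, the receptor of Ccl9 and Ccl5, at a log2 fold change of -0.82 ± 0.201 (adjusted p = 0.0116), a call lost in 2 of the 6 fits that left out 1 library. Of the 6 other ligands tested, 0 were called at day 1 by either tool (0 at an unadjusted p under 0.05), and Cxcl13, a B cell attractant, was higher at day 3 by a log2 value of 0.73 ± 0.125 (adjusted p = 0.00102).

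The proteases that cut chemokines were abundant. Adam10 and Adam17, which release Cx3cl1 and Cxcl16, had group means of 37.9 to 74.5 FPKM and 23.4 to 28.5 FPKM, and Dpp4, which clips Cxcl10 and Cxcl12, had no count in any library. Of 5 tested proteases, 0 were called at day 1 by edgeR or DESeq2 (1 at an unadjusted p under 0.05). Over all genes, edgeR called 1.95% higher and 1.61% lower there. At day 3, 1 of the 5 proteases was higher, beside 2.84% of genes. It was Mmp2, a gelatinase known to cut Cxcl12 and Ccl7. Mmp2 stood at 166.6, 179.7 and 164.2 FPKM in siCtrl and 246.6, 267.7 and 269.8 FPKM in siPRMT1, with a log2 fold change of 0.61 ± 0.0701 (SE, n = 3 against 3, edgeR adjusted p = 3.27e-05).

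Regulators through which chemokine genes are commonly induced were listed as well. Of 14 NF-kB subunits and inhibitors, all tested, 0 were called at either day by edgeR or DESeq2. Over all genes tested, edgeR called 1.95% higher and 1.61% lower at day 1, and 2.84% and 3.8% at day 3. At an unadjusted p under 0.05, 3 were higher and 1 lower at day 1, and 3 higher and 2 lower at day 3. The list medians were 0.10 and -0.03. In the interaction of siRNA and day, edgeR called 1 of the 14 higher and 2 lower, beside 7.69% and 4.63% of genes. DESeq2 called 0 higher and 3 lower there. Only mRNA was measured, and the part of these regulators in the chemokine differences was not tested. Of 9 interferon-response transcription factors, 2 were higher at day 1, beside 1.95% of genes. They were Irf9 and Stat2, which act together in a complex that binds interferon-response elements. Their log2 fold changes were 0.60 ± 0.105 (SE, n = 3 against 3, edgeR adjusted p = 0.0158) and 0.64 ± 0.0834 (adjusted p = 0.00566), and the call of Irf9 was lost in 3 of the 6 fits that left out 1 library. At day 3, 0 of the 9 were called by edgeR or DESeq2, with 1 higher and 1 lower at an unadjusted p under 0.05. The list medians were 0.16 and -0.05. In the interaction, edgeR called 1 of the 9 lower, Stat2, beside 4.63% of genes, and none higher. DESeq2 called 2 of the 9 lower and 0 higher. At an unadjusted p under 0.05, edgeR gave 4 lower and 1 higher, and the list median was -0.269.

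Among 13 inflammatory cytokines, 6 were tested at day 1 and 3 were higher, beside 1.95% of genes. Il6 was higher by 1.17 ± 0.195, Il11 by 0.95 ± 0.152 and Lif by 0.92 ± 0.217 (log2, SE, n = 3 against 3, edgeR adjusted p = 0.0135, 0.0121 and 0.0403). These calls were lost in 3, 4 and 5 of the 6 fits that left out 1 library, with adjusted p up to 0.0873, 0.0806 and 0.165. Il33, an alarmin, was lower by edgeR, beside 1.61% of genes, at a log2 fold change of -0.50 ± 0.126 (adjusted p = 0.0489). This call was not made by DESeq2 and was lost in 5 of these 6 fits. At day 3, Il33 was higher at 1.22 ± 0.274 (adjusted p = 0.00668) and Il18 at 0.71 ± 0.192 (adjusted p = 0.0203), 2 of 5 tested, beside 2.84% of genes. The call of Il18 was lost in 3 of 6 such fits. Il6 fell to 2 to 12 counts per library at day 3 and was not tested. Tnf, an inducer of Ccl2 and Cxcl1, had no count in any library.

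Markers of cell state moved beside these genes, and their part in the chemokine differences was not tested. Over all genes tested, edgeR called 1.95% higher and 1.61% lower at day 1, and 2.84% and 3.8% at day 3. At day 1, 3 of 6 tested adipocyte markers were lower in siPRMT1, namely Cidec (-0.90 on the log2 scale), Pparg (-0.52) and Cebpa (-0.88), whose calls were lost in 4, 1 and 3 of the 6 fits that left out 1 library. At day 3, 3 of 7 were lower, Adipoq, Plin1 and Cidec, with -0.69, -0.71 and -0.54, the last lost in 1 of 6 such fits. Preadipocyte markers summed to 1350 to 1400 FPKM in siCtrl and 1280 to 1310 FPKM in siPRMT1 at day 1, and to 484 to 518 FPKM and 596 to 676 FPKM at day 3, when Ly6a (0.96) and Pdgfra (0.60) were called higher. Leukocyte markers summed to 4.28 to 5.90 FPKM against 4.23 to 4.99 FPKM at day 1, where 1 of 4 tested, Lyz2, was lower at a log2 fold change of -1.52 (edgeR adjusted p = 0.0486), not called by DESeq2 and lost in 5 of the 6 fits that left out 1 library, and to 12.4 to 16.2 FPKM against 10.2 to 16.1 FPKM at day 3, where 0 of 5 were called by either tool and 0 had an unadjusted p under 0.05. Endothelial markers summed to at most 0.890 FPKM in any library, and Cdh5 was lower at day 3 at a log2 fold change of -1.19 on 6 to 29 counts, a call lost in 4 of 6 such fits.

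The genes whose course over the 12 libraries lay nearest to each member were sought among 12468 genes by the root mean square difference of centred log2 CPM (counts scaled to the library total), a description only, since all share the same libraries. Nearest to Cxcl10 were Xaf1 at 0.279 and Gbp7 at 0.335. Nearest to Ccl5 were Apol9b at 0.279 and Gbp3 at 0.358. Nearest to Ccl2 were Trim12c at 0.210 and Ifit2 at 0.260, and nearest to Ccl7 were Trim30a at 0.135 and Thsd7a at 0.156. Cxcl1 lay nearest to Nr4a1 (0.176) and Rhov (0.210), and Cxcl5 to Syt13 (0.486) and Slpi (0.547). Cxcl12 lay nearest to Rpl7 (0.0667) and Hsd17b11 (0.0769) and Cx3cl1 to Capg (0.0896) and Igf2r (0.102), and Ccl9 had Osr2 (0.216) among its nearest.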

How the data were processed

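RNA sequencing covered 12 libraries of 3T3-L1 cells in 4 groups of 3. According to the submitters' processing notes, cutadapt 1.11, HISAT2 2.1.0 and RSEM 1.2.6 were used with mm10. By the methods of the study, cutadapt filtered the raw reads and HISAT2 mapped the clean ones. Whether RSEM made the counts, the strand setting and the handling of reads with several matches are not given in the sources used here. The counts per gene were deposited by the authors as whole numbers without normalization. The FPKM were computed by the authors from these counts, and recomputing them from length and library total gave differences of at most 0.005. Of 39423 genes, 26095 had a count.

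Counts were tested with edgeR 4.0.16 (quasi-likelihood, TMM, filterByExpr, R 4.3.3) on all genes, with Benjamini-Hochberg adjustment over all genes tested. Standard errors were derived from each log2 fold change and its F value. Scripts were tested on simulated data. Alternatives were DESeq2 1.42.0, RLE normalization, no filter on low counts, the replicate number as a block, 1 model of all 12 libraries, no threshold on the fold change and leaving out each library. A further alternative, chosen after seeing the data, summed the counts of names with a number suffix (2266 genes) into their symbols. Positions are those of RefSeq on GRCm38.

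The members and lists were chosen with earlier results of these data known. Genes named are all 10 members, Prmt1, listed genes called in a knockdown comparison, listed genes within 1 Mb of a member, and the 2 genes nearest to each member by centred log2 CPM (mean of at least 1 CPM, prior count 1). Other listed genes named for a count of 0, for their level or for a call from day 1 to day 3 were chosen after their values were seen. A few items that these rules name are not reported here.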

Additional observations from a re-analysis of the deposited data

Results flagged for a closer look

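The knockdown differences of 3 members changed with the day by the interaction test of edgeR over all 12 libraries. The log2 difference at day 3 minus that at day 1 was 0.81 for Cxcl12 (adjusted p = 6.52e-06), from -0.37 at day 1 to 0.42 at day 3, with every library of a group on the same side of the other group on each day. It was 0.83 for Ccl9 (adjusted p = 0.0209), from 0.05 to 0.86, and -0.65 for Cxcl1 (adjusted p = 0.0164), from 0.44 to -0.22. No cause of these differences was tested.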

How the results depend on the processing

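Of 608 values of members under alternatives, 579 kept their direction and side of the threshold, 9 lost and 12 gained a call, and 8 changed sign. Of 311 values of listed genes and Prmt1, 262 kept both and 49 lost a call. With no threshold on the fold change, the knockdown calls at day 1 gained Cxcl1 higher and Cxcl12 lower. That made 4 members higher and 1 lower, beside 441 and 599 of 13689 genes. At day 3 the knockdown calls gained Cxcl12 higher, which made 6 members higher, beside 1058 of 14039 genes. Within siPRMT1, 2 members, Ccl9 and Cxcl12, were higher at day 3 than at day 1 under this setting, beside 4583 of 14224 genes. With no filter on low counts, 4 members had a higher interaction, Ccl2, Ccl9, Cx3cl1 and Cxcl12, beside 1498 of 26095 genes, and that of Ccl5 changed sign to 0.015. Leaving out 1 library gave 1 to 3 members with a higher interaction, beside 671 to 1760 genes, and the fit with 3 was the one with 1760 of 14978 genes, without siCtrl day 1 replicate 3. It gave values from -0.045 to 0.096 for the knockdown difference of Ccl9 at day 1, from -0.21 to 0.15 for the interaction of Ccl5, from -9.79e-04 to 0.24 for that of Ccl7 and from -0.22 to 0.85 for that of Cxcl5. None of these values was called. The cause was not tested.

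The replicate numbers gave no clear pairing of the libraries, though correlations among 3 libraries a group cannot exclude a pairing. Same-numbered libraries correlated at -0.0407 to 0.295 at day 1 and -0.0864 to 0.299 at day 3. On each day, 3 of 6 libraries correlated best with their own number. With the replicate block, 4 members were higher at day 1 (Ccl2 at 0.71, adjusted p = 0.0470) beside 296 of 13689 genes, 5 at day 3 beside 426 of 14039, and 3 had a higher interaction (Cx3cl1 at 0.43, adjusted p = 0.0323) beside 1289 of 14612. The block changed no other call of a member. Leaving out any of the 6 day 1 libraries moved the calls over all genes from 267 higher to between 61 and 504, the last without siCtrl replicate 3. Depth limits Cxcl16, and at day 3 Cxcl5, Cxcl10 and Ccl5, which had under 20 counts in each siCtrl library.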
